A study of Homo sapiens with 2 samples.

Results

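The genes described here are the autophagy machinery and its cargo receptors: 40 genes given by name, from the kinase complex that starts an autophagosome to the receptors that load it. They were found by their symbol in the array annotation, and 40 of 40 had a probe set of their own among the 18417 genes with one. The cells were K562, a human chronic myeloid leukaemia line, and they carried an inducible short hairpin RNA (shRNA) against BMI1, a Polycomb protein. One culture received doxycycline for 96 h to induce the hairpin, and the control, with the same construct, received none. Each group was 1 sample on 1 array. Both cultures held the construct and 0 samples received doxycycline without it, so the drug and the silencing cannot be told apart. The labels do not say whether the line was a single clone, nor how long the control was cultured.

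Macroautophagy wraps part of the cytoplasm in a double membrane and delivers it to the lysosome. The ULK kinase complex starts the process, the VPS34 lipid kinase complex marks the growing membrane with PI3P, and 2 ubiquitin-like conjugation reactions attach ATG8 proteins to it. Cargo receptors bind both ATG8 and the material to be removed. Maturing red cells use the pathway to clear their mitochondria, and K562 cells have an erythroid character.

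All values are log2 array signals normalized by RMA, and each difference is the doxycycline value minus the control value, computed before rounding. Because each group held 1 sample, the spread between replicates is unknown and no p-value was computed. As a yardstick, the text gives the robust SD that genes of similar signal showed in their differences on the same arrays. It was 0.25 for the dimmest and 0.10 for the brightest genes, and it is not a replicate error. Signals of different genes come from different probes and are not ranked against each other. BMI1 was 10.00 with doxycycline and 10.84 in the control on a probe set shared with the COMMD3-BMI1 read-through, or 1.79-fold lower. Of the erythroid markers, 7 of 7 measured were past the signal floor of 6 in both samples. They differed by -0.44 (HBZ) to 0.22 (ALAS2), and their linear signals summed to 16737 with doxycycline and 19775 without. Such a sum weighs the brightest gene most, here HBE1, at 13.03 with doxycycline and 13.34 without. Of T and B cell markers 2 of 4 were past the floor in both samples, of monocyte and granulocyte markers 3 of 5, and of fibroblast markers 4 of 4. Of all 18417 genes, 13471 were past the floor in at least 1 sample, so passing it does not by itself show expression. The summed signals of these other marker lists, genes under the floor included, were 307 and 331, 938 and 916, and 612 and 618 in the doxycycline and control samples. Detection calls were not used here, and the part of erythroid signal in the results below was not tested. In cultures, fewer cells of a kind and less RNA per cell cannot be told apart.

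The autophagy genes stood close to equal in the 2 samples and went both ways. ULK2 was under the floor of 6 in both samples, and the remaining 39 were past it in both. Of these 39, 20 (51.3%) were higher with doxycycline and 19 lower, against 50.3% higher among the 13471 genes past the floor. Their median difference was 0.00039, and that of all genes 0.0018. Only TP53INP1 and NBR1 were at least 1.2-fold higher (2 of 39, or 5.13%), against 6.04% of all genes. None of the 39 was 1.2-fold lower (0 of 39), against 4.05% of all genes. The same 2 genes were more than 2 robust SD above 0, where 4.08% of all genes lay, and 0 of 39 were as far below, where 2.1% of all genes lay. The counts of higher and lower autophagy genes are thus near the background, and 0 of 39 reached 1.5-fold. The quartiles of the members were -0.09 and 0.10, and those of all genes -0.09 and 0.11.

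**Figure D1:**
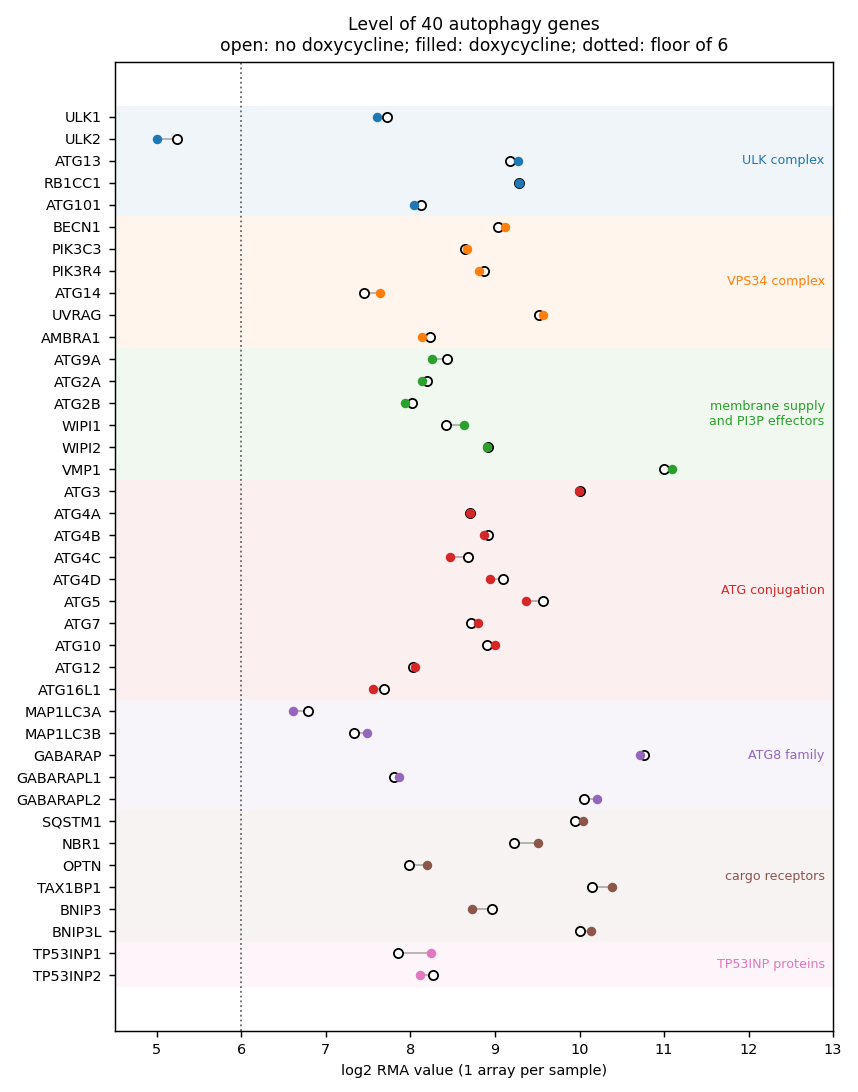
Log2 RMA value (horizontal axis) of each of the 40 genes in the sample without doxycycline (open circles) and with it (filled circles), grouped by step, 1 array per sample; the dotted line is the floor of 6. The 2 circles nearly coincide for most genes, TP53INP1 and NBR1 are the furthest apart among those past the floor, and ULK2 lies left of the line; positions of different genes are not comparable.

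The steps of the pathway differed in their medians by small amounts, and the cargo receptors stood highest. Their median difference was 0.17, with 5 of 6 higher, against a median of 0.0018 and 50.3% higher among all genes. The ULK complex had a median of -0.04 (2 of 4 higher), the VPS34 complex 0.03 (4 of 6), the lipid supply and PI3P effector genes -0.04 (2 of 6), the conjugation genes -0.03 (3 of 10) and the ATG8 family 0.05 (3 of 5). The 33 members other than cargo receptors had a median of -0.01, with 15 higher and 18 lower. These are descriptions of 2 arrays.

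**Figure D2:**
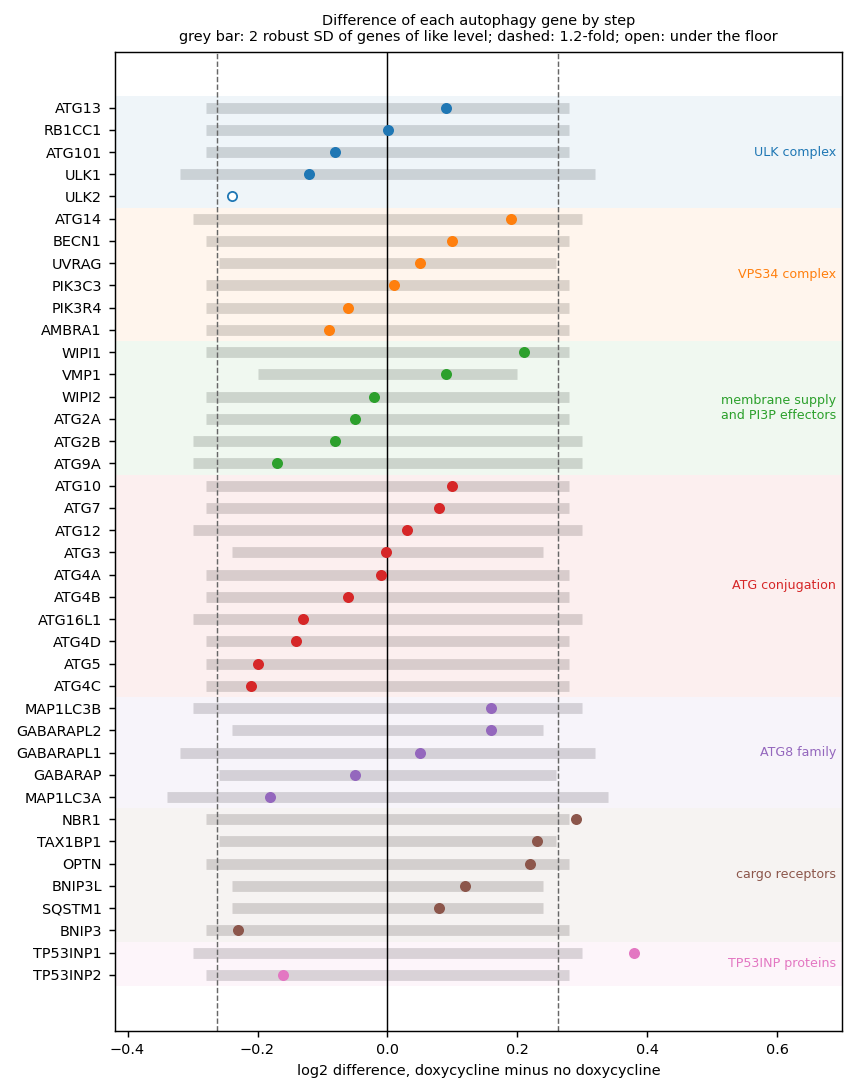
Log2 difference, doxycycline minus no doxycycline (horizontal axis), of each gene, sorted within its step. Grey bars span 2 robust SD of genes of similar level on either side of 0, dashed lines mark 1.2-fold and the open circle is under the floor; only TP53INP1 (0.38) and NBR1 (0.29) lie beyond both their bar and the line.

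In the ULK complex, which passes nutrient signals on to the membrane, ULK1, the main initiating kinase, was lowest. Its signal was 7.60 with doxycycline and 7.72 in the control, and the difference of -0.12 compares with a robust SD of 0.16. ATG13, the adaptor that binds the kinase, was highest, at 9.27 against 9.18 (0.09). ATG101, the partner of ATG13, differed by -0.08. RB1CC1 (FIP200), the scaffold of the complex, had the same value to 2 decimals in both samples, 9.29. ULK2, the paralogue of ULK1, read 5.0 and 5.24, both under the floor. Every difference in the complex past the floor was below 1 robust SD.

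In the VPS34 complex, ATG14, the subunit that directs the kinase to autophagosomes, stood at 7.64 with doxycycline and 7.45 in the control (0.19, or 1.14-fold higher). UVRAG, which takes the place of ATG14 in the endosomal form of the complex, differed by 0.05. The catalytic subunit PIK3C3 differed by 0.01, its regulatory partner PIK3R4 by -0.06 and the scaffold BECN1 by 0.10. AMBRA1, a regulator that binds BECN1, was lowest, at 8.14 against 8.23 (-0.09). AMBRA1 and ATG13 lie on chromosome 11 with 1 protein-coding gene between them, and they differed in opposite directions.

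Among genes that feed lipid to the growing membrane or read PI3P, WIPI1 and ATG9A were the extremes. WIPI1, a PI3P-binding protein, stood at 8.63 with doxycycline and 8.42 without, or 1.16-fold higher (0.21, 1.49 robust SD). WIPI2, its paralogue that recruits ATG16L1, differed by -0.02. ATG9A, the transmembrane lipid scramblase, stood at 8.25 against 8.43 (-0.17). The lipid transfer protein ATG2A differed by -0.05 and VMP1, an endoplasmic reticulum scramblase, by 0.09. For ATG2B, the paralogue of ATG2A, the direction was not settled: its brighter probe set gave -0.08 and its dimmer one 0.15. With the dimmer one, the median of this step was 0.03 in place of -0.04.

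The conjugation genes held the lowest 2 of the 33 genes other than cargo receptors, ATG4C and ATG5. ATG4C, a protease that trims ATG8 proteins, stood at 8.47 with doxycycline against 8.68, or 1.16-fold lower (-0.21, where 7.22% of all genes were at or below this value). ATG5, which forms the ligase for ATG8 with ATG12 and ATG16L1, was next, at 9.37 against 9.57 (-0.20). Neither passed 1.5 robust SD. Of the other proteases, ATG4D differed by -0.14, ATG4B by -0.06 (its other probe set by -0.12) and ATG4A by -0.01, each within 2 robust SD. ATG16L1 differed by -0.13, while ATG12 was 0.03. The enzymes that activate and transfer these proteins were not lower as a group: ATG10, the E2 enzyme for ATG12, was highest at 9.00 against 8.90 (0.10), ATG7, the shared E1 enzyme, differed by 0.08, and ATG3, the E2 enzyme for ATG8, by -0.0021.

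The ATG8 family, the small ubiquitin-like proteins that coat the membrane, was split. GABARAPL2 stood at 10.21 with doxycycline and 10.05 without (0.16), and GABARAPL1 at 7.86 against 7.81 (0.05). GABARAP stood at 10.71 against 10.76 (-0.05) and MAP1LC3A at 6.61 against 6.79 (-0.18). MAP1LC3B, the LC3 protein used to follow autophagosomes, depended on its probe set. Its own probe set read 7.49 and 7.33 (0.16), while a further one, shared with the near-identical MAP1LC3B2, read 9.95 and 9.96 (-0.0099). None of the 5 genes differed by more than 2 robust SD, and with the shared probe set the family median was -0.0099 in place of 0.05.

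The cargo receptors were higher with doxycycline in all but 1 case, where 50.3% of all genes were higher. Only NBR1 among them passed 2 robust SD. NBR1, a receptor for ubiquitinated protein, stood at 9.51 with doxycycline and 9.23 without, or 1.22-fold higher (0.29, 2.05 robust SD). Of all genes past the floor, 4.95% had a difference at least as high. TAX1BP1, a ubiquitin-binding receptor that acts with NBR1, stood at 10.38 against 10.15 (0.23, 1.82 robust SD). OPTN, which binds ubiquitin on damaged mitochondria, stood at 8.20 against 7.98 (0.22, 1.63 robust SD). SQSTM1 (p62), the classical receptor of protein aggregates, was nearer to equal, at 10.04 against 9.95 (0.08).

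The 2 outer-membrane receptors of mitochondria went opposite ways. BNIP3, known as a gene induced by low oxygen, stood at 8.73 with doxycycline against 8.96, or 1.17-fold lower (-0.23, -1.67 robust SD), the lowest of the 39. Its value is uncertain because the RefSeq table names 46 BNIP3 pseudogenes, which may share probes with it. BNIP3L (NIX), which serves mitochondrial clearance in maturing red cells, stood at 10.13 against 10.01 (0.12). Of the 7 erythroid markers, 6 were lower and ALAS2 was higher (0.22), where 6579 of the 13471 genes past the floor were lower. A link between these markers and the 2 receptors was not tested.

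The widest contrast within a pair was between the TP53INP genes, whose proteins bind ATG8 and promote autophagosome formation. TP53INP1, also known as a p53-induced gene (K562 cells lack functional p53), stood at 8.24 with doxycycline and 7.85 without, or 1.31-fold higher (0.38, 2.64 robust SD), and was the highest of the 39. Of all genes, 2.0% were at least as high. TP53INP2, its paralogue, stood at 8.11 against 8.27 (-0.16). TP53INP2 and MAP1LC3A, the lower ATG8 gene, are separated by 1 protein-coding gene on chromosome 20, and both were lower by a similar amount.

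**Figure D3:**
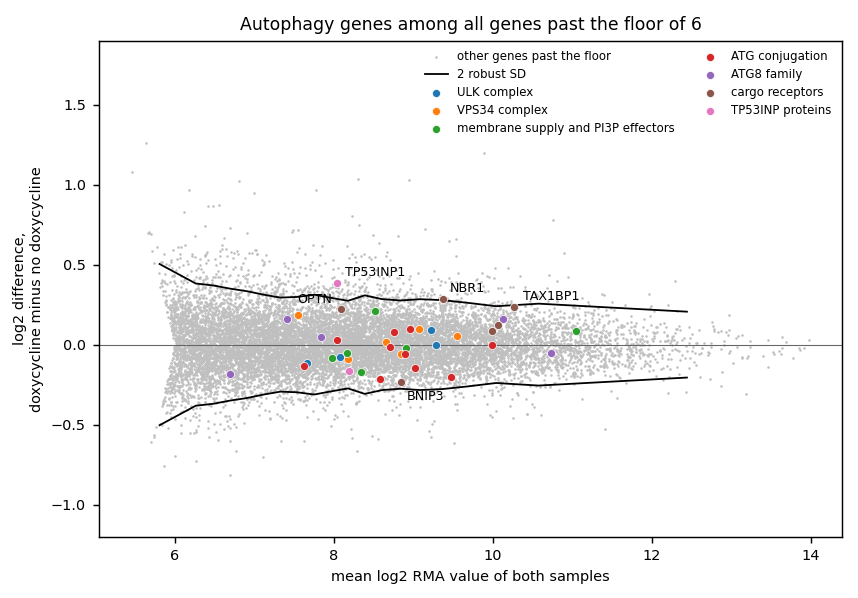
Log2 difference (vertical axis) against the mean log2 value of both samples (horizontal axis) for the 13471 genes past the floor (grey) and the 39 autophagy genes (coloured by step); black lines mark 2 robust SD at each level. The autophagy genes lie within the cloud of all genes, with TP53INP1 at 0.38 above the upper line, NBR1 at 0.29 just past it, and BNIP3 at -0.23 the lowest.

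Promoter sequence is shown for the 3 cargo receptors with the highest differences, NBR1, TAX1BP1 and OPTN, and for BNIP3, the lowest, of which only NBR1 passed 2 robust SD. Each is the 250 bases before the gene start on the strand of the gene, 5′ to 3′, from RefSeq (GRCh38.p14), and of the 2 windows of NBR1, TAX1BP1 and OPTN the one richer in G and C was taken. The windows are chr17:43170964-43171213 (plus strand) for NBR1, chr7:27739912-27740161 (plus) for TAX1BP1, chr10:13099913-13100162 (plus) for OPTN and chr10:131981924-131982173 (minus) for BNIP3. Capitals mark matches to any of the motifs listed after them.
NBR1: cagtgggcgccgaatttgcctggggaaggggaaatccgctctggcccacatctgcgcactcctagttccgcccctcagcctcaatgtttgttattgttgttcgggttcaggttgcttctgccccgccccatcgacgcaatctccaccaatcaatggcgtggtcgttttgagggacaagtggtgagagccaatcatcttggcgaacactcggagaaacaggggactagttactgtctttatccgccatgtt
TAX1BP1: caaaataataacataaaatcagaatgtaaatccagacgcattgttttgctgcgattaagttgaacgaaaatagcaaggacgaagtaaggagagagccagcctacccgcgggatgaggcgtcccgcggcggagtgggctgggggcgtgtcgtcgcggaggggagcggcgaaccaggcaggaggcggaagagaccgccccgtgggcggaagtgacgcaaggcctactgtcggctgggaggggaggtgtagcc
OPTN: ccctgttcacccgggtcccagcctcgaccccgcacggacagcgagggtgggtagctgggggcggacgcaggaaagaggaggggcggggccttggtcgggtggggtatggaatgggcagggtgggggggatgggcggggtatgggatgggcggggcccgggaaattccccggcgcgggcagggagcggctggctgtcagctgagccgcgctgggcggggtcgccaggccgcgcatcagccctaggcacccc
BNIP3: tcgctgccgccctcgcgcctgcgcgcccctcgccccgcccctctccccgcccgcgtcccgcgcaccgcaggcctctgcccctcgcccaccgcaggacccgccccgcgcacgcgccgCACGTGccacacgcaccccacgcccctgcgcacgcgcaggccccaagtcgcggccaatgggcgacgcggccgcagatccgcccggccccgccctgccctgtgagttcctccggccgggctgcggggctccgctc

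Motifs of 4 kinds were searched on both strands. They were TGATGNAA (the composite element bound by ATF4 with C/EBP factors), the E-box CACGTG, its longer form TCACGTGA (the core of the element read by TFEB), and ACGTG (the core of the hypoxia response element), which lies inside both E-box forms. Of the 40 genes, 34 had 43 promoter windows of 300 bases in the RefSeq table, 250 before and 50 after the start. TGATGNAA was in 0 of the 43, against 3.62% of all 35116 windows. The E-box was in 3 (6.98%, against 7.26%), those of ATG3, ATG14 and BNIP3. TCACGTGA was in 1, that of ATG3 (2.33%, against 0.98%), and ACGTG in 12 (27.9%, against 21.4%). Counted by gene among those past the floor, the shares of the 33 members with a window and of all 10603 such genes were 0 and 2.64% for TGATGNAA, 9.09% and 12.3% for the E-box, 3.03% and 2.07% for TCACGTGA, and 36.4% and 31.2% for ACGTG. The windows of NBR1, TAX1BP1 and OPTN held none of the 4 motifs (0 matches), while the match in BNIP3 starts 134 bases before the gene start. The E-box genes had no common direction: ATG14 differed by 0.19, ATG3 by -0.0021 and BNIP3 by -0.23. A match is a run of letters and not evidence of binding.

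Other genes of the pathway were followed through 7 lists, 70 genes past the floor of which 35 were higher and 35 lower. At least 1.2-fold higher were 5 of the 70 (7.14%), against the 6.04% of all genes given above. Of the 70, 0 were 1.2-fold lower, against 4.05% of all genes. Genes of the kinases upstream of ULK1 and of their partners went both ways, with 0 of 13 past 2 robust SD. The mTORC1, TSC and AMPK list had a median of -0.01 with 5 of 13 higher, from PRKAG2, an AMPK subunit gene, at -0.23 to PRKAG1, another, at 0.21. MTOR differed by -0.10 and PRKAA1, the catalytic AMPK subunit, by 0.18. Among transcription factors known to regulate autophagy genes, not all of them activators, the median was 0.05 with 6 of 12 higher. ZKSCAN3, a repressor, was among the higher ones, at 0.17. DDIT3 (CHOP) was 1.48-fold higher, at 8.51 against 7.94, and ATF4 stood at 11.19 against 10.97 (0.23) on its brighter probe set and differed by -0.09 on its dimmer one. TFE3 differed by 0.22, MITF by 0.19, and TFEB was lowest at -0.14.

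The remaining cargo receptors and adaptors had a median of 0.05, with 8 of 12 higher and 2 of 12 (16.7%) at least 1.2-fold higher, against 50.3% and 6.04% of all genes. CALCOCO1, a receptor for endoplasmic reticulum and Golgi membranes, was 1.44-fold higher, reading 8.26 with doxycycline against 7.73. CALCOCO2 (NDP52), which binds ubiquitin on bacteria and mitochondria, was 1.24-fold higher, at 9.71 against 9.40. TAX1BP1 belongs to the same family as these 2, and the 3 genes differed by 0.53, 0.32 and 0.23. A group of ubiquitin-binding receptors, SQSTM1, NBR1, OPTN, TAX1BP1 and CALCOCO2, was 5 of 5 higher, between 0.08 and 0.32, where 50.3% of all genes were higher. TOLLIP, which also binds ubiquitin, was not in this group and differed by 0.04. Both groupings were made after the values were seen and are descriptions only. FKBP8, a mitophagy receptor, and PHB2, an inner-membrane one, were the lowest of the list at -0.13 each, and NCOA4, the receptor of ferritin, stood at 11.76 in both samples.

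**Figure D4:**
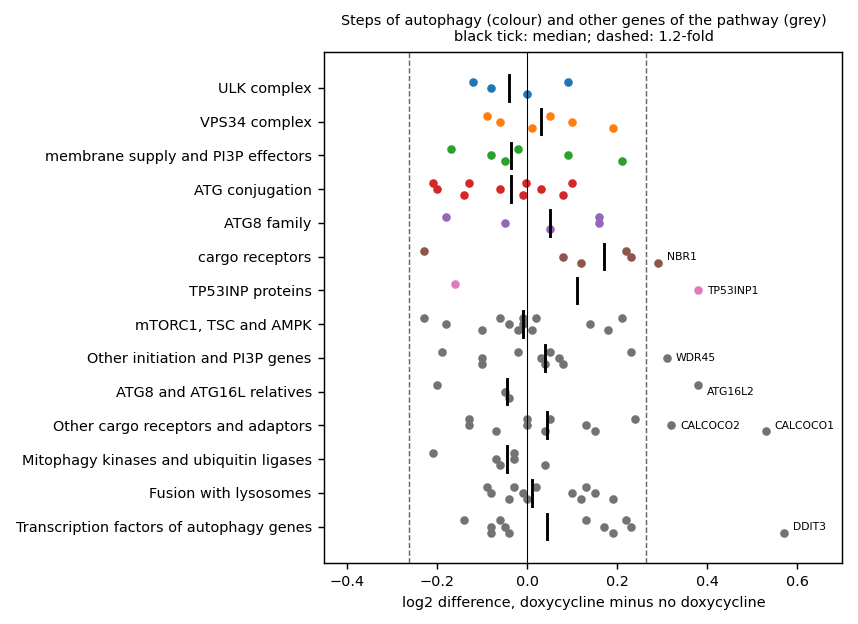
Log2 difference, doxycycline minus no doxycycline (horizontal axis), of each gene past the floor in the 7 steps (coloured) and in the 7 lists of other pathway genes (grey); black ticks are medians and dashed lines mark 1.2-fold. Genes past 1.2-fold are named, from NBR1 at 0.29 to DDIT3 at 0.57. All 7 are on the higher side: 5.13% of the step genes and 7.14% of the list genes, against 6.04% of all genes. On the lower side, 4.05% of all genes are past 1.2-fold.

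In the other 4 lists, WDR45 and ATG16L2 were the genes past 1.2-fold. WDR45, a WIPI family protein, stood at 9.38 with doxycycline and 9.07 without, or 1.24-fold higher. Its paralogue WDR45B differed by -0.10. The list of other initiation and PI3P genes had a median of 0.04 with 7 of 11 higher, and EI24 was its lowest at -0.19. ATG16L2, the paralogue of ATG16L1, stood at 7.50 against 7.13 (1.30-fold higher), whereas ATG16L1 itself differed by -0.13. The list that holds it had 1 of 4 higher, a median of -0.05 and a mean of the opposite sign, 0.02. Its lowest gene was GABARAPL3, at -0.20, whose value is uncertain because it is close in sequence to GABARAPL1. Mitophagy kinases and ubiquitin ligases had a median of -0.04 with 1 of 6 higher, from MUL1 at -0.21 to PINK1 at 0.04. Genes for fusion with the lysosome had a median of 0.01 with 7 of 12 higher, from YKT6 at -0.09 to EPG5 at 0.19.

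The differences of the 39 genes went with genomic span and signal level only weakly. Across them Spearman's rho was 0.13 with span and 0.22 with mean level, against 0.18 and 0.00 across all genes. Genes on the same arrays are not independent replicates, and no test was made. The median span was 36.2 kb among the 39 and 24.0 kb among all genes with a span.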

How the data were processed

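Total RNA of both cultures (RNA integrity number 10, 0.3 µg labelled) was hybridised to 1 array each, per the labels. The authors deposited log2 values from RMA in Affymetrix Expression Console (1.1.1), as the submitters' processing notes name them. Background correction, quantile normalization and summarising by probe set are the steps of RMA, which compresses differences of dim genes and removes shifts shared by all genes. No label states the log base: RMA's usual scale and the range, 1.61 to 14.6, point to log2. The design text names another array than the platform annotation used here for names.

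Of 33297 probe sets, 19460 had 1 symbol, 1754 several and 12083 none, and 19429 of the 19460 were matched to RefSeq (GRCh38.p14) by gene ID. A gene took its probe set with the highest mean. With a floor of 6 on the higher of both values, 13471 genes stayed. Of the 40 genes, 2 had a second probe set of their own. The robust SD is the median absolute deviation times 1.4826, taken in 20 bins of mean level. Members and lists were chosen with earlier results of these data known. Named from the steps were members past 1.2-fold or 2 robust SD, all ATG8, receptor and TP53INP genes and the extremes of other steps; from each pathway list, its extremes and genes past 1.2-fold. Further genes were named after their values were seen. The counting steps were tested on simulated data with planted 1.5-fold differences, a size that 0 of the 39 genes reached. The work used Python 3.11.15, pandas 2.3.3, numpy 2.4.6, scipy 1.17.1 and statsmodels 0.14.6.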

Additional observations from a re-analysis of the deposited data

How the results depend on the processing

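The values were recomputed under 13 alternatives, 2 of them added after seeing the data (removal of a linear trend with genomic span, and MAP1LC3B taken from its shared probe set). The others were the mean, median or dimmest probe set, centring, quantile normalization, a loess trend (span 0.3), no floor, floors of 5, 7 and 8, and a floor on the mean. Only 4 of them (centring, quantile normalization and both trends) can alter the value of a gene with 1 probe set. The other 9 only average or exchange probe sets or change which genes are counted, and say nothing on TP53INP1, NBR1 or the cargo receptors. Under the 4, 2 autophagy genes were at least 1.2-fold higher and 0 were 1.2-fold lower, and 18 or 19 of 39 were higher. Of all genes under the same 4, 5.37% to 6.13% were 1.2-fold higher and 3.54% to 4.7% were 1.2-fold lower. The counts thus stayed near the background. Over all 13, the share higher lay between 46.2% (18 of 39, span trend removed) and 53.8% (21 of 39, mean, median or dimmest probe set), with 17 of 33 at the floor of 8, and the median between -0.01 and 0.01. The share of all genes higher lay between 47.1% (centring) and 51.0% (quantile normalization and the floor of 8). A median was taken as moved past 0.13, the SD of the difference between probe sets of 1 gene, over the root of the number of genes. By this only the lipid supply and PI3P effector step moved, to 0.03 with the dimmest probe sets, which exchange ATG2B's. Under the 4, the median of the cargo receptors lay between 0.16 and 0.17. Medians of other steps near 0 took both signs (-0.08 to 0.00039 for the ULK complex, -0.0062 to 0.03 for the VPS34 complex, -0.0099 to 0.1 for the ATG8 family). Under the 4, the 21 named genes moved by at most 0.05. MAP1LC3B was -0.0099 on its shared probe set. Among other pathway genes, 3 of 90 medians moved: transcription factors to -0.05 (dimmest probe sets) and 0.13 (floor of 7), and the ATG8 and ATG16L relatives to 0.16 (floor of 7). No paired analysis was possible because each group held 1 sample. For the same reason no replicate could be left out, and the number of arrays limits the precision of every value.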
